A study of Mus musculus with 2 samples.

Results

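The 9 genes described here encode proteins that tie the contractile filaments of heart muscle together: Ttn, Mybpc3, Ldb3, Tcap, Csrp3, Myoz2, Nexn, Fhl2 and Des. They were chosen by name, with earlier results of these data known, so counts beside all genes only describe them. Their EP300 peaks were the 49 peaks, of 17372 in the deposited optimal list, whose summit lay within 100 kb of a protein-coding transcription start site (TSS) and for which the nearest such TSS belonged to one of the 9 genes. The assay was chromatin immunoprecipitation with sequencing (ChIP-seq) using an antibody labelled EP300, on whole heart tissue of newborn mice of the B6NCrl strain at an age of 0 days. The data formed 1 group of 2 libraries, replicates 1 and 2, with no second tissue, stage, genotype or treatment, so no groups were compared and no test was run. Although numbered as biological replicates, both libraries carry the identifier of a single biosample and donor, so differences between them measure the spread between 2 libraries, which may be technical.

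EP300 (p300) is a histone acetyltransferase that is recruited by DNA-bound transcription factors and acetylates nearby histones, and its occupancy is widely used as a mark of active enhancers and promoters. In the sarcomere, titin runs as a molecular spring from the Z-disc to the M-band. Myosin-binding protein C decorates the thick filament. Telethonin, the LIM-domain proteins, nexilin and the myozenins gather at the Z-disc, where actin filaments are anchored, and desmin filaments link neighbouring Z-discs to each other and to the cell membrane. Many of these genes are mutated in human cardiomyopathies. A peak near a gene does not show that it acts on that gene.

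The sequences below are windows around summits on which the results turn, read from the GRCm38 (mm10) assembly on its + strand, 5′ to 3′, with motif matches on either strand in capitals. The first set holds promoter-proximal windows, shown because the E-box CAGCTG, a word bound by basic helix-loop-helix factors, recurred in them. The Csrp3 window is the one without it and holds a match to the MEF2 motif, as does the Mybpc3 window. The Des capitals also mark TGAATCA, a match to the AP-1 word. The Mybpc3 and Fhl2 windows were shortened to leave out untranslated regions.
Mybpc3 promoter, chr2:91117952-91118143: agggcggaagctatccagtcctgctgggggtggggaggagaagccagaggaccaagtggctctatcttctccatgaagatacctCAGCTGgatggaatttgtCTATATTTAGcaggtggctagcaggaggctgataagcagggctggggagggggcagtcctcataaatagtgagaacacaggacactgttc
Ttn promoter-proximal intron, chr2:76981862-76982061: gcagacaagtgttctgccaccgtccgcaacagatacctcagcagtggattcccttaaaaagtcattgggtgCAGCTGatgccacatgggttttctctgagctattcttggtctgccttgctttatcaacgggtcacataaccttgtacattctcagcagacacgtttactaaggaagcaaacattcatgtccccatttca
Des promoter, chr1:75359439-75359638: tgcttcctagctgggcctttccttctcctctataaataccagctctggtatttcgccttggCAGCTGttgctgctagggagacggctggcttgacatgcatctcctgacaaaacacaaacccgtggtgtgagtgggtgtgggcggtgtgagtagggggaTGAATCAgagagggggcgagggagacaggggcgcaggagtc
Fhl2 promoter, chr1:43196985-43197084: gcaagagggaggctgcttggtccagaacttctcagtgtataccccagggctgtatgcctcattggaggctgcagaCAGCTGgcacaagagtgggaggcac
Csrp3 promoter, chr7:48848294-48848493: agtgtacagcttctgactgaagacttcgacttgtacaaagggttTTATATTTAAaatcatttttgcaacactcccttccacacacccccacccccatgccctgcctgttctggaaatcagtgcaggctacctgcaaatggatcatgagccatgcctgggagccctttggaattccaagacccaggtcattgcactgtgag

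The second set holds the strongest peaks farther than 1 kb from a start site at 3 genes. The Fhl2 capitals mark CATCTG, the HAND word, and ACATTCC, the TEAD word. In the Ldb3 window the MEIS word TGACAG and CAGCTG share 3 bases, so the capitals form 1 run. The Ttn window holds CAGCTG next to an NKX2 match, a further NKX2 match and a MEF2 match.
Fhl2 upstream site, chr1:43247704-43247903: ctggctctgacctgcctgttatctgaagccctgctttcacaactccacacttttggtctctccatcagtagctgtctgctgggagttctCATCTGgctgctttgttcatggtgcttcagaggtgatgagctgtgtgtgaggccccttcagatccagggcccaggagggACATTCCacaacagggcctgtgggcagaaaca
Ldb3 intron, chr14:34574105-34574304: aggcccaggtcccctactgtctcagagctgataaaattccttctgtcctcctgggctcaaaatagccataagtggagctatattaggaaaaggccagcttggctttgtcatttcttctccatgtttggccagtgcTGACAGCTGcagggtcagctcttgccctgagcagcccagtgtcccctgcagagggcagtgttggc
Ttn internal intron, chr2:76806419-76806618: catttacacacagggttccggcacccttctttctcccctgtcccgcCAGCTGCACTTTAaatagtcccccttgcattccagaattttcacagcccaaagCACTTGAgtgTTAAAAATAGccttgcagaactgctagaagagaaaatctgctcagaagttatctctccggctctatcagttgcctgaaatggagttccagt

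Every one of the 9 genes had at least 1 optimal peak, against 31.9% of the 21853 protein-coding genes. At least 4 peaks were assigned to 7 of the 9, against 4.93% of all genes. The median was 4 peaks per gene among the 9 and 0 over all genes, or 2 among genes that had any peak. The stretch of genome in which a gene's TSSs were the nearest had a median of 48.2 kb for the 9 genes and 46.5 kb over all genes. Over the summed stretches, the 9 genes had 6.95 peaks per 100 kb and all genes 0.972. Peaks were thus more numerous at these genes than at most, by count and per length. The median deposited signal value of their peaks was 28.6, and that of all optimal peaks was 30.6. The medians near and far from start sites lay on opposite sides of those over all optimal peaks. Within 1 kb of a TSS the median was 38.7 at the 9 genes, against 30.6 for all optimal peaks that near. Farther out it was 26.6 at the 9 genes, against 30.6 for all optimal peaks that far. Values at the 9 genes ranged widely, from 7.50 to 65.8 near and from 8.25 to 134.3 far. Whether these medians differ beyond that spread was not tested. In a whole tissue, binding in more cells and more binding per cell cannot be told apart.

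**Figure D1:**
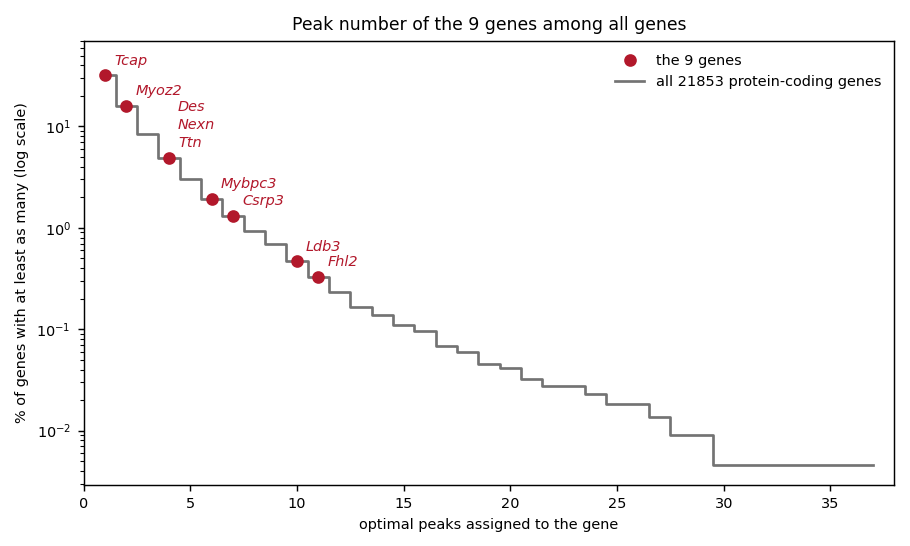
Optimal peaks per gene (x axis) against the percentage of the 21853 protein-coding genes with at least as many peaks (y axis, log scale); red points are the 9 genes and the grey line is all genes. Fhl2 with 11 peaks and Ldb3 with 10 lie in the sparse right part, while Tcap with 1 peak stands with the 31.9% of genes that have any peak.

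In the optimal list Fhl2 and Ldb3 carried the most peaks, 11 and 10. Of all genes, 72 had at least 11 and 102 had at least 10. Csrp3 followed with 7 and Mybpc3 with 6, then Ttn, Nexn and Des with 4 each, Myoz2 with 2 and Tcap with 1. This order depended on the list. In the conservative list Csrp3 led with 9, before Ldb3 with 8, Ttn with 7 and Fhl2 and Mybpc3 with 6 each. Among the leading peaks of replicate 2 alone, Fhl2 had 5, fewer than Ldb3 with 10, Csrp3 with 8 and Ttn and Mybpc3 with 7 each. Some calls stood close together: 23 of the 49 member peaks (46.9%, exact 95% interval 32.5% to 61.7%) had another optimal summit within 0.50 kb, against 36.5% of all optimal peaks. Merging such summits left 37 sites, with 8 each at Fhl2 and Ldb3, 5 each at Mybpc3 and Csrp3, 3 each at Ttn and Nexn, 2 each at Myoz2 and Des, and 1 at Tcap. The intervals given here cover counting error only, and peaks of 1 gene are not independent. The depth behind the peaks is unknown, since the files hold no read counts.

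**Figure D2:**
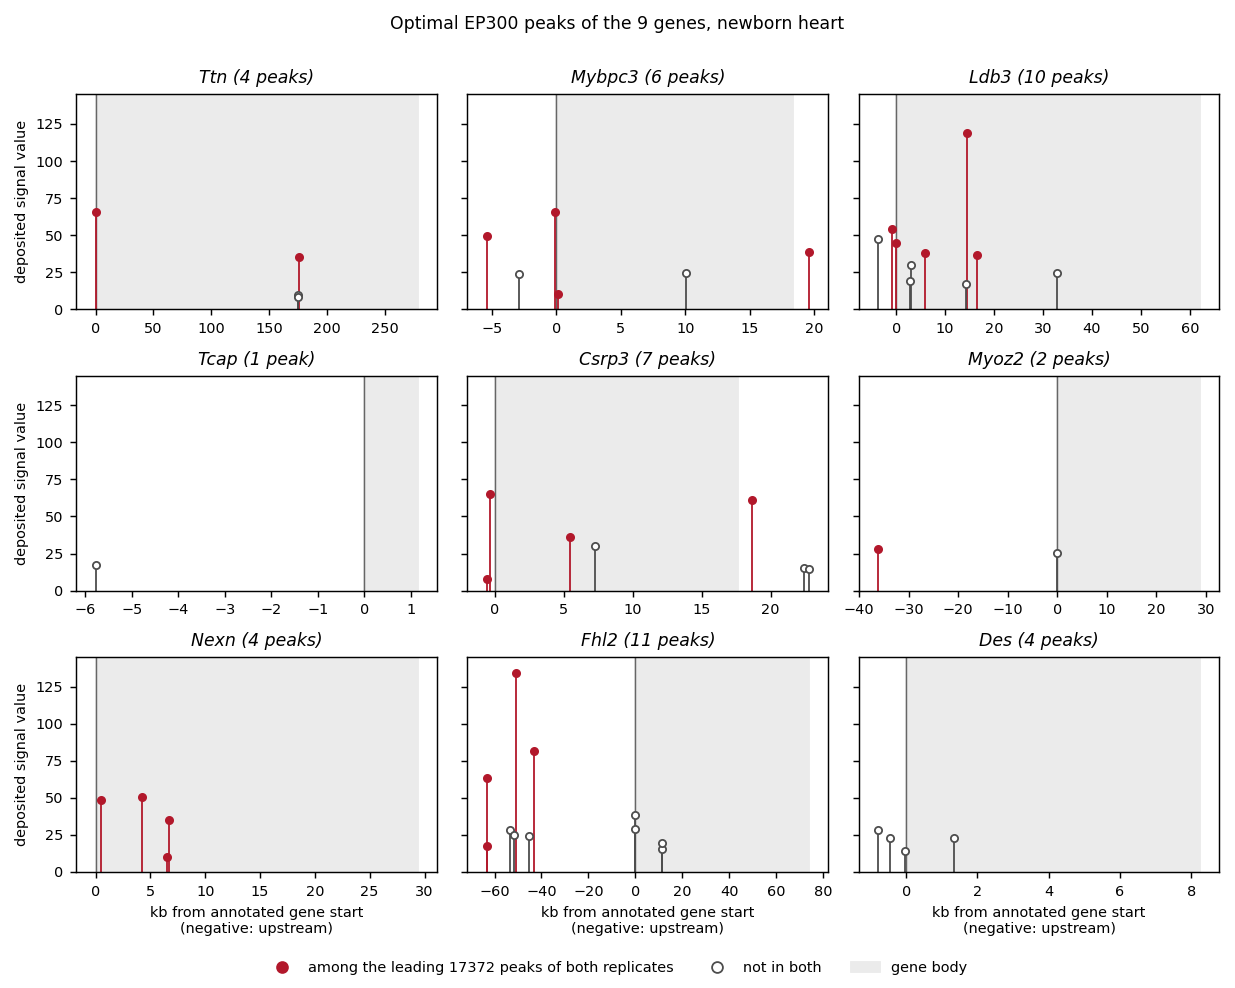
Deposited signal value of each optimal peak (y axis) against its distance in kb from the annotated start of the gene (x axis, negative upstream), 1 panel per gene; filled red points had a summit among the leading 17372 peaks of both replicates within 0.25 kb, open points did not, and grey marks the gene body. The tallest peaks lay 50820 bp upstream of Fhl2 and 14477 bp inside Ldb3, and no peak of Des or Tcap is filled.

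A promoter-proximal peak, with its summit within 1 kb of a TSS, was found at 8 of the 9 genes, against 19.0% of all genes. Tcap was the exception. These made up 15 of the 49 peaks (30.6%, exact 95% interval 18.3% to 45.4%), against 33.5% of all optimal peaks, so the balance between near and far peaks did not stand apart. Of the other 34 peaks, 20 lay in introns (58.8%, interval 40.7% to 75.4%), against 48.7% of all distal optimal peaks. The promoter-proximal windows of the 9 genes differed in base composition from those elsewhere: 200 bases around the summit held a median of 4 CpG dinucleotides and 54.0% G+C, against 15 CpGs and 62.0% over all promoter-proximal peaks. Among the 15 windows, that of the first Nexn peak, with 17 CpGs and 71.0% G+C, lay above both of those medians, and that of the Des peak 29 bp upstream of the TSS, with 11 CpGs and 68.5% G+C, lay above the G+C one. Distal windows held a median of 2 CpGs at the 9 genes and 3 over all distal peaks.

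Ttn (ENSMUSG00000051747.14, chr2:76703980-76982547, - strand) encodes titin, the giant elastic protein of the sarcomere. Its strongest peak, with a signal value of 65.8 and rank 1547 in the optimal list, lay in intron 1, 493 bp downstream of the nearest TSS. Summits at this place ranked 1479 in replicate 1 and 3670 in replicate 2. The other 3 calls fell deep inside the gene, in introns 222 and 223 of its 347-exon transcript, 175098 to 176028 bp from the gene start and 19093 to 20023 bp from an internal annotated TSS. The intron 223 summit had a signal value of 35.5 and ranked 13684 in replicate 1 and 3946 in replicate 2. Both calls in intron 222 were weak, at 9.92 and 8.25. Their nearest summits ranked 44663 and 199100 in replicate 1, and shared a summit of rank 120895 in replicate 2. Among these 3 optimal calls, only the intron 223 summit had leading summits in both libraries. The conservative list held further calls 1069 and 1407 bp from the nearest optimal summit, with signal values of 19.8 and 12.2. Each had a replicate 1 summit of rank 15680 within 0.25 kb. The first also had a replicate 2 summit of rank 16482, and the second had none there. When only the 5′ end of each gene counted as its TSS, all 3 internal optimal calls lost their link to Ttn, and 1 peak assigned to Ccdc141 joined it, giving 2.

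Mybpc3 (ENSMUSG00000002100.15, chr2:91118144-91136516, + strand) encodes cardiac myosin-binding protein C. Its promoter held the strongest of its 6 peaks, 92 bp upstream of the TSS, with a signal value of 65.6. This summit ranked 1123 in replicate 1 and 2475 in replicate 2. A call 111 bp downstream of the TSS had a signal value of 10.5. Replicate 1 held a summit of its own 4 bp from this call, at rank 6140, while in replicate 2 the nearest summit, 197 bp away, was the promoter one. Upstream peaks lay inside the neighbouring Spi1, which encodes a transcription factor of myeloid and B cells. The one 5390 bp upstream of Mybpc3, in a Spi1 intron, had a signal value of 49.1 and ranked 2480 in replicate 1 and 4966 in replicate 2. The one 2877 bp upstream, in a Spi1 coding exon, ranked 7500 in replicate 1 and had no summit in the replicate 2 list. A peak in an untranslated region of Madd, 19574 bp downstream of the Mybpc3 TSS, had a signal value of 38.4 and ranked 5792 in replicate 1 and 3650 in replicate 2. Assigning each summit first to the gene body that holds it left Mybpc3 with 3 peaks in place of 6.

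Ldb3 (ENSMUSG00000021798.14, chr14:34526603-34588682, - strand) encodes a PDZ and LIM domain protein of the Z-disc, also called Cypher or ZASP. Of its 10 peaks, 8 lay in its own body, which held 11 optimal peaks in all, the other 3 being nearer to a TSS of 9230112D13Rik. The strongest, in intron 5 and 14276 bp from the nearest Ldb3 TSS, had a signal value of 119.1 and rank 206. Both replicates held it high, at rank 186 in replicate 1 and 484 in replicate 2. Peaks near the start lay 865 bp upstream of a TSS, with a signal value of 53.8, and at a TSS itself, with 44.8. The first of these ranked 3004 in replicate 1 and 4317 in replicate 2. A peak 3707 bp upstream, in an untranslated region of Opn4, which encodes the light-sensing pigment melanopsin, ranked 1585 in replicate 1 but 32617 in replicate 2. In intron 2, the summits 2566 and 2809 bp downstream of a TSS each had a summit within 6 bp in both libraries. That of the first ranked 12937 in replicate 1 and 82143 in replicate 2, and that of the second 7352 in replicate 1 and 77796 in replicate 2.

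Tcap (ENSMUSG00000007877.2, chr11:98383811-98384953, + strand) encodes telethonin, which caps the titin ends at the Z-disc. Its single optimal peak had a signal value of 17.5 and rank 14773, and lay 5779 bp upstream in a non-coding exon of Stard3, 124 bp from a TSS of a Stard3 transcript that is not protein-coding. It ranked 41238 in replicate 1 and 8520 in replicate 2, and the conservative list held no peak of Tcap. Leading summits close to the Tcap start differed between the libraries. Those of replicate 1 lay 173 and 456 bp downstream of the TSS, at ranks 16166 and 15535, and that of replicate 2 lay 1067 bp downstream, at rank 14237. No optimal peak represented them.

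Csrp3 (ENSMUSG00000030470.15, chr7:48830398-48848033, - strand) encodes muscle LIM protein, a Z-disc protein. The promoter peak 361 bp upstream of the TSS was the strongest of its 7, with a signal value of 65.3, and the nearest summit ranked 2345 in replicate 1, 2 bp away, and 2062 in replicate 2, 8 bp away. Replicate 1 held a stronger summit of rank 1737 a further 208 bp toward the TSS. A call 562 bp upstream had a signal value of 7.5, a value 8.70 times lower than its neighbour. Nearly as strong was an intergenic peak beyond the 3′ end, 14295 bp from the nearest TSS, with a signal value of 61.1, rank 3313 in replicate 1 and rank 901 in replicate 2. Peaks in an intron, 1094 and 2902 bp downstream of a TSS, had signal values of 36.0 and 29.9. A pair of calls farther out, in an intron of Zdhhc13, had values of 15.2 and 14.7. Their nearest summits ranked 262764 and 139238 in replicate 1, and 21949 and 18138 in replicate 2.

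Myoz2 (ENSMUSG00000028116.13, chr3:123006206-123035015, - strand) encodes myozenin 2, or calsarcin, which binds α-actinin and the phosphatase calcineurin. A promoter peak 48 bp upstream had a signal value of 25.4 and ranked 24734 in replicate 1 and 8117 in replicate 2. The other peak, intergenic and 36186 bp upstream toward Synpo2, had a signal value of 28.1 and ranked 10988 in replicate 1. In replicate 2 the strongest summit nearby, 105 bp away, ranked 7016, and the nearest, 95 bp away, ranked 95296. Of the other optimal peaks within 100 kb of the Myoz2 start, 4 were assigned to Synpo2, a gene for an actin-binding Z-disc protein. These 4 passed to Myoz2 when only gene 5′ ends counted, giving 6.

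Nexn (ENSMUSG00000039103.12, chr3:152236982-152266350, - strand) encodes nexilin, an F-actin-binding protein of the Z-disc. All 4 of its peaks lay in its own introns within 6696 bp of the gene start, and all 4 had leading summits of both replicates within 0.25 kb. The GC-rich peak 454 bp inside the gene had a signal value of 48.6, with rank 6297 in replicate 1 and 2300 in replicate 2. The peak 4253 bp inside had a value of 50.5, with rank 2915 in replicate 1 and 8707 in replicate 2. Farther in, a peak with a value of 34.9 ranked 13420 in replicate 1 and 6488 in replicate 2, and a weak call 200 bp away, at 9.83, had its nearest summit at rank 111240 in replicate 1 and shared the rank 6488 summit of replicate 2.

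Fhl2 (ENSMUSG00000008136.14, chr1:43123074-43196984, - strand) encodes a LIM-only protein that binds titin and shuttles to the nucleus as a transcriptional cofactor. Its peaks formed 3 groups: 7 intergenic ones 43.0 to 63.3 kb upstream, 2 at the promoter and 2 in an intron about 11 kb downstream. The tallest peak of all 9 genes lay 50820 bp upstream, with a signal value of 134.3 and rank 134. It ranked 130 in replicate 1 and 150 in replicate 2, in each library the strongest summit of the 49. Its interval, chr1:43247705-43247934, was also narrow. Summits 43004 and 63085 bp upstream had signal values of 81.7 and 63.2, and ranked 1051 and 1706 in replicate 1 and 886 and 4368 in replicate 2. Between them, the summits 51675 and 45196 bp upstream were seen mainly in replicate 1, at ranks 7163 and 9740, against 244908 and 134609 in replicate 2. The promoter peak, 1 bp upstream of the TSS, ranked 3707 in replicate 1 and 18634 in replicate 2, just outside the leading 17372. AI597479 was the nearest other protein-coding gene, at least 141278 bp from each upstream summit. Counting TSSs of every biotype, all 7 upstream peaks were nearer to the processed pseudogene Gm29610, at 10.4 to 30.7 kb, and Fhl2 kept only the 2 promoter peaks.

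Des (ENSMUSG00000026208.9, chr1:75360329-75368579, + strand) encodes desmin, the muscle intermediate filament protein. It had 3 promoter-proximal peaks, 790, 449 and 29 bp upstream of the TSS, and a peak 1342 bp downstream, with signal values of 28.6, 23.2, 14.4 and 22.8. None had a leading summit in both replicates. The 790 bp summit ranked 269360 in replicate 1 and 5438 in replicate 2. At 449 bp the ranks were 26879 in replicate 1 and 16959 in replicate 2. The 29 bp summit ranked 8483 in replicate 1 and had no summit in replicate 2, while the downstream summit ranked 8562 in replicate 2 and had none within 0.25 kb in replicate 1. Both libraries held leading peaks around the Des start, yet not at the same summits.

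Over the 49 peaks, 24 had a summit among the leading 17372 peaks of both replicates within 0.25 kb (49%, exact 95% interval 34.4% to 63.7%), against 53.8% of all optimal peaks. They were spread over 7 genes: 5 at Ldb3, 4 each at Mybpc3, Csrp3, Nexn and Fhl2, 2 at Ttn and 1 at Myoz2. A leading summit stood in replicate 1 at 36 of the 49 peaks (73.5%) and in replicate 2 at 31 (63.3%), against 75.8% and 67.5% of all optimal peaks. In the full lists of 300000 peaks, both replicates held a summit at 46 of 49 (93.9%, interval 83.1% to 98.7%), against 86.9% of all optimal peaks. Of those 46, 29 ranked better in replicate 1 and 17 in replicate 2, while 52.5% of all optimal peaks matched in both lists ranked better in replicate 1. These counts take the strongest summit within 0.25 kb, so neighbouring calls could share one: 48 member peaks shared 40 summits in replicate 1, and 47 shared 38 in replicate 2. With the nearest summit taken in its place, they held 47 distinct summits in replicate 1 and 41 in replicate 2. By that rule 21 of 49 peaks had a leading summit in both replicates (42.9%, interval 28.8% to 57.8%), against 48.6% of all optimal peaks, and the Myoz2 peak was no longer among them.

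**Figure D3:**
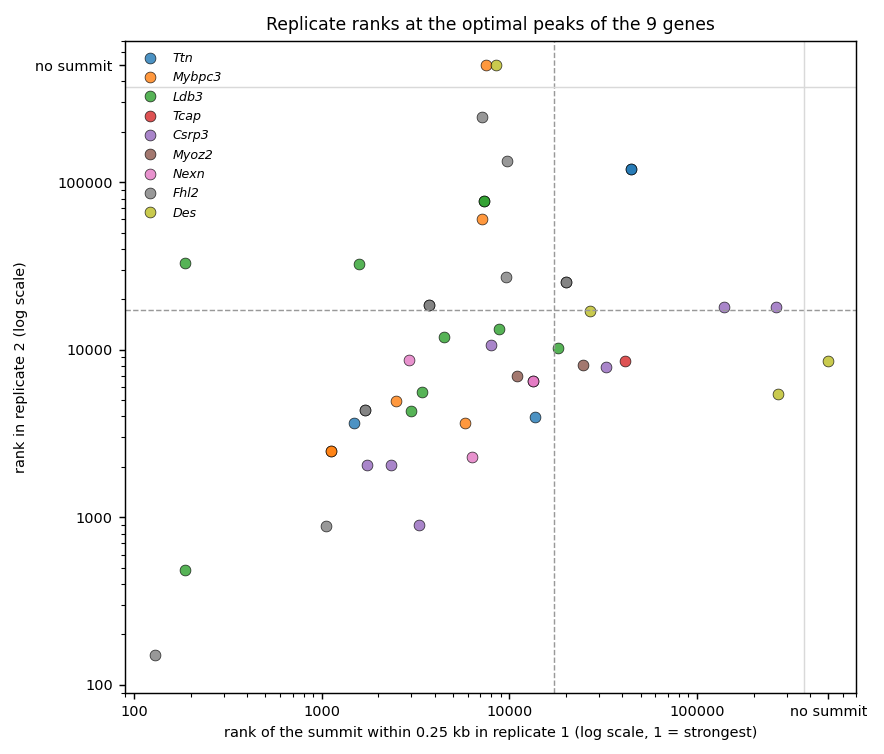
Rank of the summit matched within 0.25 kb in replicate 1 (x axis) and replicate 2 (y axis), both on log scales, for the 49 optimal peaks; dashed lines mark rank 17372 and the outer band holds peaks with no summit in that list. The Fhl2 peak at ranks 130 and 150 stands at the lower left, 24 peaks lie inside both lines, some of them drawn at a summit shared with a neighbour, and Des points lie outside them.

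Counted list by list, the same loci gave 44 peaks in the conservative list, 43 in the leading 17372 of the pooled list, 50 in those of replicate 1 and 50 in those of replicate 2. Near-equal totals hid differences between genes. Fhl2 had 11 leading peaks in replicate 1 and 5 in replicate 2, and Des had 2 and 5. Ttn had 8 and 7, both above its 4 optimal peaks, and 7 in the conservative list. Tcap had 2 and 3, with 0 in the conservative list. A conservative peak was found at 8 of the 9 genes, against 29.3% of all genes, and a leading peak in each replicate's list at 9 of 9, against 26.0%. Of the 44 conservative peaks, 33 lay within 0.25 kb of an optimal summit, a share not computed over all conservative peaks. Among the 11 that did not, 4 belonged to Ttn, including a summit at -204 bp of an internal TSS, of rank 18945 in replicate 1 and 7430 in replicate 2, and a summit at -2103 bp of the gene start, of rank 26519 in replicate 1 and 13698 in replicate 2.

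**Figure D4:**
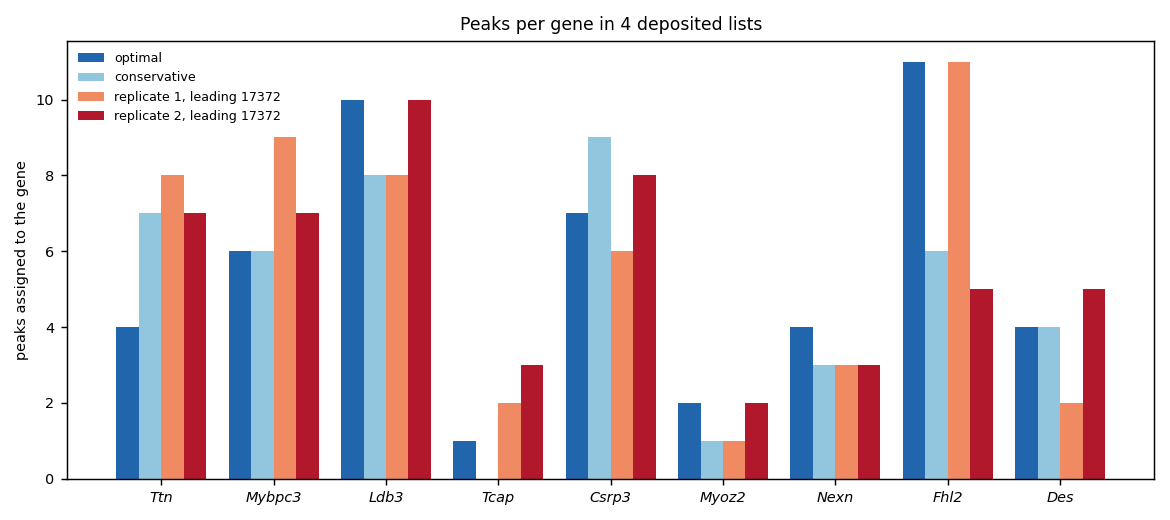
Number of peaks assigned to each gene (y axis) in the optimal list, the conservative list and the leading 17372 peaks of replicates 1 and 2 (bars from left to right; no error bars, since each bar is 1 count). Fhl2 has 11 leading peaks in replicate 1 and 5 in replicate 2, and Tcap has no conservative peak.

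A set of 17 short motifs was searched in the 200 bases around each summit, on both strands. The E-box CAGCTG was in 17 of the 49 windows (34.7%, interval 21.7% to 49.6%), against 17.8% of all optimal windows. This came from promoter-proximal windows: 9 of 15 held it (60.0%, interval 32.3% to 83.7%), against 11.6% of all such windows, while distal windows held it in 8 of 34 (23.5%), against 20.9% of all distal windows. By gene, 7 of the 8 with a promoter-proximal peak had CAGCTG in at least 1 such window, against 15.2% of the 4148 genes with such a peak. The 8 genes had 15 such windows and the 4148 genes 5810, and more windows give more chances of a match. At Ttn, Mybpc3, Ldb3 and Nexn, the peaks of the CAGCTG windows had leading summits in both replicates. At Myoz2, Fhl2 and Des they did not. Base composition moved with CAGCTG: among promoter-proximal windows with at most 4 CpGs, 16.6% held it. By gene, 18.6% of the 655 genes with such a window had CAGCTG in at least 1 of them. The part of base composition in the difference was not tested further. In the Mybpc3 sequence shown above CAGCTG began 16 bp before the summit, and in the Ttn and Des windows 29 and 39 bp before it. The Fhl2 one lay farther off, beginning 75 bp after the summit. At 100 bases around the summit, 6 of the 15 promoter-proximal windows held CAGCTG (40.0%), against 6.06% of all such windows.

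MEF2 matches, the A/T-rich motif of myocyte enhancer factors, were in 4 of the 15 promoter-proximal windows (26.7%, interval 7.79% to 55.1%), against 1.84% of all such windows and 5.30% of those with at most 4 CpGs. They belonged to Mybpc3, Csrp3 and Myoz2. In windows of 100 bases the count was 1 of 15 (6.67%), against 1.07% of all such windows. The Mybpc3 match began 2 bp after the summit. In distal windows MEF2 was in 1 of 34 (2.94%), the Ttn intron 223 window, against 7.31% of all distal windows. The CArG box of serum response factor was in 1 window (2.04%), at the Ldb3 TSS, against 1.44% of all optimal windows.

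Among the other motifs, the MEIS word TGACAG was in 14 of 49 windows (28.6%), against 18.1% of all optimal windows. Of these, 12 were distal, or 35.3% of the 34 distal windows (interval 19.7% to 53.5%), against 21.5% of all distal windows. The NKX2 word TNAAGTG was in 9 of the 49 (18.4%), against 9.72% of all optimal windows. The HAND word CATCTG was in 5, or 10.2%, against 13.8%. Distal windows held the GATA word AGATAAG in 2 of 34, both at Csrp3, against 7.12% of all distal windows, and the TEAD word ACATTCC in 3 of 34 (8.82%), against 7.10%. The MCAT word CATTCCT, which can share bases with ACATTCC, was in 2 windows (4.08%), both at Ldb3, against 5.87% of all optimal windows. AP-1 (TGANTCA) was in 4 windows (8.16%, against 7.41%), KLF/SP (GGGCGGGG) in 2 (4.08%, against 7.04%) and ERR (TNAAGGTCA) in 1 (2.04%, against 1.41%). None of the 49 held the endothelial ETS word ACAGGAAG, against 5.42% of all optimal windows. Also absent were the promoter ETS word CCGGAAGT (2.79% of all optimal windows), the T-box word AGGTGTGA (0.744%), the CREB word TGACGTCA (1.05%) and the glucocorticoid receptor motif (2.09%). With 0 of 34 distal windows the exact interval reaches 10.3%, above the share of each of these in all distal windows, so lower shares were not detectable with so few windows. A match is a description of the letters and not evidence of a bound factor.

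**Figure D5:**
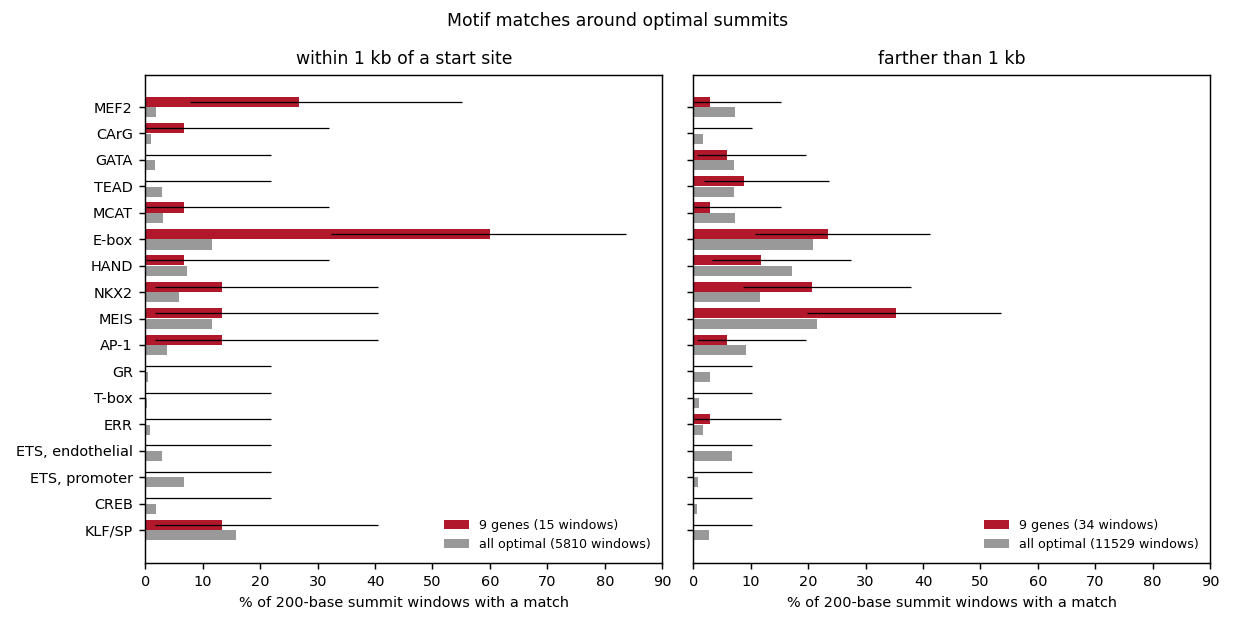
Percentage of 200-base summit windows with a match to each motif (x axis) at the 9 genes (red, upper bar, with exact 95% intervals) and at all optimal peaks (grey, lower bar), for promoter-proximal windows on the left and distal ones on the right. The E-box CAGCTG at 60.0% and MEF2 at 26.7% of the 15 promoter-proximal windows are the 2 of 34 bars whose intervals leave out the share at all optimal peaks. The MEF2 windows came from 3 genes, and in 100-base windows MEF2 was in 1 of the 15.

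Of 62 other genes of the sarcomere's anchoring systems, 42 had an optimal peak, against 31.9% of all protein-coding genes, with 137 peaks in all with a median of 1 per gene. All 8 genes of the desmin filament system had one, as did 9 of 15 titin and M-band partners, 15 of 24 other Z-disc and thin-filament anchoring genes, 5 of 6 of the calcineurin and myozenin signalling list, 4 of 5 LIM-only paralogues and 1 of 4 of the myosin-binding protein family. Actn2, for the Z-disc crosslinker α-actinin 2, had 11 peaks, Palld, for the actin-binding palladin, 10, and Crip2, a LIM-only gene, 9. Close relatives of the 9 genes differed. Mybpc1, the slow skeletal form, had 1 peak and Mybpc2, the fast skeletal form, 0. Csrp1 and Csrp2 had 5 and 4, beside 7 at Csrp3. Fhl1 and Fhl5 had 0 and Fhl3 had 1, beside 11 at Fhl2. Myoz1, the fast skeletal myozenin, had 0 and Myoz3 had 1, beside 2 at Myoz2. The genes with no optimal peak were Myom3, Trim54, Ankrd2, Fhl1, Capn3 and Nbr1 among titin and M-band partners, Mybpc2, Mybph and Mybphl in the myosin-binding family, Neb, Myoz1, Myot, Pdlim3, Flnc, Xirp2, Cavin4, Capza2 and Capzb among anchoring genes, and Fhl5 and Nfatc4. Some had peaks elsewhere: Flnc had 2 conservative peaks, with 4 leading ones in replicate 1 and 1 in replicate 2.

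Marker genes of the labelled tissue carried peaks: all 6 cardiomyocyte markers had one (77 peaks), from 4 at Tnni3 to 27 at Myh6. Endothelial markers had peaks at 5 of 5 genes (24 peaks), fibroblast markers at 3 of 5 (3 peaks), and leukocyte, neuronal and liver markers at 1 of 4 each. Of all protein-coding genes, 31.9% had an optimal peak, so 1 of 4 was near that share. The tissue was not sorted, and how much each cell type added to the peaks of the 9 genes was not tested.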

How the data were processed

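EP300 ChIP-seq of newborn heart was deposited as 5 peak lists on mm10. Per the file headers, peaks were called by the authors on replicate 1 with 2 control alignments, on replicate 2 with 1, and on both pooled with 2, and the conservative list derives from the replicate and pooled lists. The irreproducible discovery rate (IDR) keeps peaks that rank alike in 2 lists. The optimal list likewise derives from both replicates, but which lists gave it is not stated. For the aligner, the caller and the IDR threshold, nothing is given in the sources used here. The authors' values are a signal value per peak (formula not stated), a deposited −log10 q-value and, in the IDR lists, a deposited score of at most 1000. They are the authors' own and were used only to describe, rank and filter peaks within a list. A peak's position in a list ordered by signal is called its rank, with 1 the strongest.

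Summits on the main chromosomes (17339 of 17372) were assigned to the nearest of 54361 protein-coding TSSs in GENCODE M21, within 100 kb. Replicate summits were matched within 0.25 kb, taking the strongest, or the nearest where stated (an alternative chosen after seeing the data). Leading peaks are the first 17372 of a list by signal. Windows were read from GRCm38 with pysam 0.24.0. Exact intervals came from SciPy 1.17.1. Assignment, matching, merging and motif search were tested on simulated data. The 9 genes and all lists were chosen with earlier results of these data known. Named genes were the 9, their neighbours, the 3 related genes with most peaks, those with none, and close paralogues added after their values were seen. Sequences were taken from each gene's strongest window outside untranslated regions, and those of Nexn, Tcap, Myoz2 and the strongest such Mybpc3 window are not reported here. The Mybpc3 and Fhl2 promoter and Ttn internal windows, motif counts by gene and the split by CpG number were added after the values were seen. Alternatives are listed in the closing section.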

Additional observations from a re-analysis of the deposited data

How the results depend on the processing

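No paired analysis was possible because the 2 libraries form 1 group. The 9 genes had 37 to 51 peaks under the other lists, distances, merging and assignments, and 27 with a deposited −log10 q of at least 2. Those 27 were 55.1% of the 49, and 57.7% of all optimal peaks reached that limit. The other lists held partly different peaks: 11 of 44 conservative ones, 6 of 43 pooled ones, 15 of 50 of replicate 1 and 21 of 50 of replicate 2 lay near no optimal summit. The same shares over all peaks of these lists were not computed, so whether these genes differ in this from others is unknown. With 1 replicate left out (leading peaks of the other) the total was 50 and 50, genes with a peak 9 and 9, related genes 48 to 49, and the promoter share 28.0% to 30.0%. Genes with a peak numbered 8 or 9 and related genes 37 to 49 under every alternative run. The share of peaks with a summit in both replicates became 73.5% with 50000 leading peaks, a setting not computed over all optimal peaks. With the full lists it became 93.9%, against 86.9% of all optimal peaks. Taking the nearest replicate summit, an alternative chosen after seeing the data, gave 42.9%, against 48.6%. Any of the 17 motifs was in 71.4% of member windows of 200 bases, 51.0% of 100 bases and 85.7% of 300 bases, against 67.9%, 45.6% and 79.2% of all optimal windows. CAGCTG was in a promoter-proximal window of 5 genes at 100 bases and of 7 at 200 and 300. MEF2 was in 1 of 15 such windows at 100 bases (6.67%, against 1.07% of all) and in 4 at 200 and 300. Among single genes, Fhl2 had 2 peaks when TSSs of every biotype counted and 6 within 50 kb, Myoz2 had 6 with gene 5′ ends, and Tcap had 0 in the conservative list, above the −log10 q limit, with every biotype and by gene body. Wider windows hold more letters by construction. The cause of the other changes was not tested. Both libraries share a donor, the depth is unknown, and 1 group allows no comparison of conditions.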
